A study of Mus musculus with 12 samples.

Results

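The chemokines Ccl2, Ccl7, Cxcl1 and Cxcl2, the adhesion molecule Icam1, the NF-κB subunits Nfkb1, Nfkb2 and Relb and the feedback inhibitors Nfkbia and Tnfaip3 were followed in cultured mouse hepatocytes. They were selected by symbol from the 37991 genes of the deposited table, where each symbol has 1 entry. All 10 passed the filter on low values, as did 11213 genes in all. The cells came from 10-week-old male mice with floxed alleles of both REV-ERB genes, Nr1d1 and Nr1d2, which encode repressive nuclear receptors of the circadian clock. Every group shared these alleles and an AAV8 injection made 2 weeks before isolation, in which the hepatocyte-directed TBG promoter drove Cre and GFP (libraries labelled KO) or only GFP (control). A group with Cre and without floxed alleles is not among them, and an effect of Cre on its own cannot be told apart from the deletion. Plated cells then received DMSO, the vehicle, or 10 µM SR9009 (S9009 in the sample titles) over 8 h. SR9009 is a synthetic ligand of REV-ERB, and the series asks which of its effects need the receptor. This gives 12 libraries, 3 for each genotype and treatment. Nothing in the labels ties the 3 libraries of a group to separate mice, and p-values therefore measure the spread between libraries, which may be technical.

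NF-κB is a family of paired transcription factor subunits that inhibitor proteins hold in the cytoplasm. Signals such as TNF, IL-1 and bacterial lipopolysaccharide lead to breakdown of the inhibitor, and the freed pair enters the nucleus and switches on chemokines, adhesion molecules and its own brakes, among them Nfkbia (the inhibitor IκBα) and Tnfaip3 (a ubiquitin-editing enzyme that dampens the upstream signal). In the liver, CCL2 and CCL7 draw monocytes through the receptor CCR2, CXCL1 and CXCL2 draw neutrophils through CXCR2, and ICAM1 lets leukocytes hold on to the cell. REV-ERBα has been described as a repressor of Ccl2 in macrophages.

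Levels are in FPKM (fragments scaled to gene length and to library size), with SDs over n = 3 libraries after ±. Differences and their SEs are on the log2(FPKM + 1) scale, where the change of a weakly expressed gene comes out too small; folds are ratios of mean FPKM. Adjusted p-values come from limma across all 11213 genes, by the Benjamini-Hochberg method with a threshold of 0.05. Read totals are unknown, but the step size of low values put the shallowest library, control SR9009 library 1, at 55.5% of the depth of the deepest, control DMSO library 1. Nr1d1 and Nr1d2 were not called between genotypes in DMSO (adjusted p = 0.492 and 0.633). Under SR9009 Nr1d1 was higher in KO-labelled cells, at 22.1 against 19.5 FPKM (adjusted p = 0.0429), and it rose with SR9009 in these cells (adjusted p = 0.00472). As the sources do not say which exons were removed, levels of the whole genes are no check of either. Arntl, a clock gene that REV-ERB represses, had means of 0.214 FPKM in control and 6.49 FPKM in KO-labelled cells given DMSO. It passed the filter on low values only through the KO-labelled libraries, where it was high, so no test of it is used here.

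The 7 hepatocyte markers summed to 27889 FPKM or more in every library, and markers of other cells were far lower. The 11 markers of Kupffer cells and other macrophages, which can also make these chemokines, summed to 50.9 to 64.3 FPKM in control cells with DMSO and 51.1 to 56.1 with SR9009, and to 37.1 to 48.9 and 47.1 to 49.6 FPKM in KO-labelled cells. In DMSO 4 of the 9 tested macrophage markers fell and 1 rose in KO-labelled cells, and under SR9009 1 fell and 1 rose. For comparison, 11.7% of all genes tested were called higher and 8.32% lower in DMSO, and 12.9% and 7.43% under SR9009. Of the macrophage markers Marco, a scavenger receptor, had means of 9.52 ± 1.34 FPKM in control and 1.66 ± 0.462 FPKM in KO-labelled cells given DMSO (adjusted p = 1.21e-05). Cd68, the highest of these markers, went the other way. It rose from 18.3 ± 1.86 to 23.7 ± 2.95 FPKM in DMSO (adjusted p = 0.0318) and from 19.0 ± 1.28 to 28.0 ± 2.87 FPKM under SR9009 (adjusted p = 0.00332). The 8 endothelial markers summed to 7.69 to 8.66 and 8.00 to 9.60 FPKM in control and to 11.6 to 17.0 and 11.5 to 11.9 FPKM in KO-labelled cells, and 3 of the 4 tested rose in DMSO and 0 were called by limma under SR9009. Of the 5 cholangiocyte markers 2 were tested, and under both treatments Sox9 rose and Spp1 fell. Sox9 was between 2.34 and 4.36 FPKM in control and between 7.82 and 11.6 FPKM in KO-labelled libraries, while the 5 markers summed to 42.1 to 44.7 and 39.4 to 61.7 FPKM in control and 29.1 to 38.8 and 34.5 to 38.7 FPKM in KO-labelled cells. The 6 neutrophil markers reached at most 0.359 FPKM in sum, with S100a9, Ly6g and Mpo at 0 throughout. The leukocyte marker Ptprc reached at most 0.323 FPKM. In bulk RNA, fewer cells of a type and less RNA per cell cannot be told apart.

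Ccl2 and Ccl7 were higher in KO-labelled than in control hepatocytes under both treatments, while Cxcl1 and Cxcl2 were not called. Ccl2 (ENSMUSG00000035385, chromosome 11, 81849073 to 81850955, mm9), the main monocyte attractant of the set, stood at 31.2, 14.9 and 16.7 FPKM in control and 80.7, 74.6 and 77.2 FPKM in KO-labelled cells given DMSO. With SR9009 it stood at 14.9, 7.92 and 13.3 FPKM in control and 71.5, 83.7 and 57.6 FPKM in KO-labelled cells. All 6 KO-labelled libraries lay above all 6 control libraries. In DMSO the mean rose 3.70-fold, from 20.9 ± 8.94 to 77.5 ± 3.08 FPKM (log2 difference 1.91, SE 0.27, adjusted p = 0.000485). Under SR9009 it rose 5.90-fold, from 12.02 ± 3.64 to 70.9 ± 13.1 FPKM (log2 difference 2.49, SE 0.27, adjusted p = 6.40e-05). Where Ccl2 was higher, the summed macrophage and cholangiocyte markers were lower. The cholangiocyte sum was mostly Spp1, with means of 39.9 FPKM in control and 24.4 FPKM in KO-labelled cells given DMSO. The macrophage marker Cd68, the summed endothelial markers and the cholangiocyte marker Sox9 were higher where Ccl2 was. The part of these cells in the Ccl2 difference was not tested.

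Ccl7 (ENSMUSG00000035373, chromosome 11, 81859214 to 81861027), a monocyte attractant and the neighbour of Ccl2 on the same strand, had lower levels per length. It stood at 2.56, 1.39 and 1.22 FPKM in control and 5.21, 4.10 and 5.56 FPKM in KO-labelled cells given DMSO, and with SR9009 at 0.713, 0.106 and 1.12 FPKM and 3.77, 5.08 and 4.27 FPKM. As for Ccl2, every KO-labelled library was above every control library. The mean rose 2.88-fold in DMSO, from 1.72 ± 0.729 to 4.96 ± 0.763 FPKM (log2 difference 1.15, SE 0.23, adjusted p = 0.00406). It rose 6.78-fold under SR9009, from 0.645 ± 0.508 to 4.37 ± 0.662 FPKM (log2 difference 1.75, SE 0.23, adjusted p = 0.000192). Without control SR9009 library 3 the control mean under SR9009 was 0.410 FPKM, which makes the fold over 1.5 times larger, and with a pseudocount of 0.1 the difference was 2.92. The DMSO call was lost with a pseudocount of 0.1 in place of 1 (log2 difference 1.53, adjusted p = 0.0623).

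Other genes of this stretch of chromosome 11 were nearly silent. The chemokines Ccl12 and Ccl8 were listed at 0 FPKM in all 12 libraries, and Ccl11 reached 0.0374 FPKM in 1 library. The unnamed gene model Gm11419 (81798908 to 81802271, before Ccl2), singled out after its values were seen and too low to be tested, was at 0.0693, 0.0816 and 0.0590 FPKM in control and 0.814, 0.389 and 0.898 FPKM in KO-labelled cells given DMSO. With SR9009 it was listed at 0 in the 3 control libraries and stood at 0.217, 0.350 and 0.182 FPKM in the KO-labelled ones. Like its neighbours Ccl2 and Ccl7, it was higher in each KO-labelled library than in any control library. On the opposite strand Gm17268 overlaps Ccl2 over 1883 bases, and it was listed at 0 in every library.

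**Figure D1:**
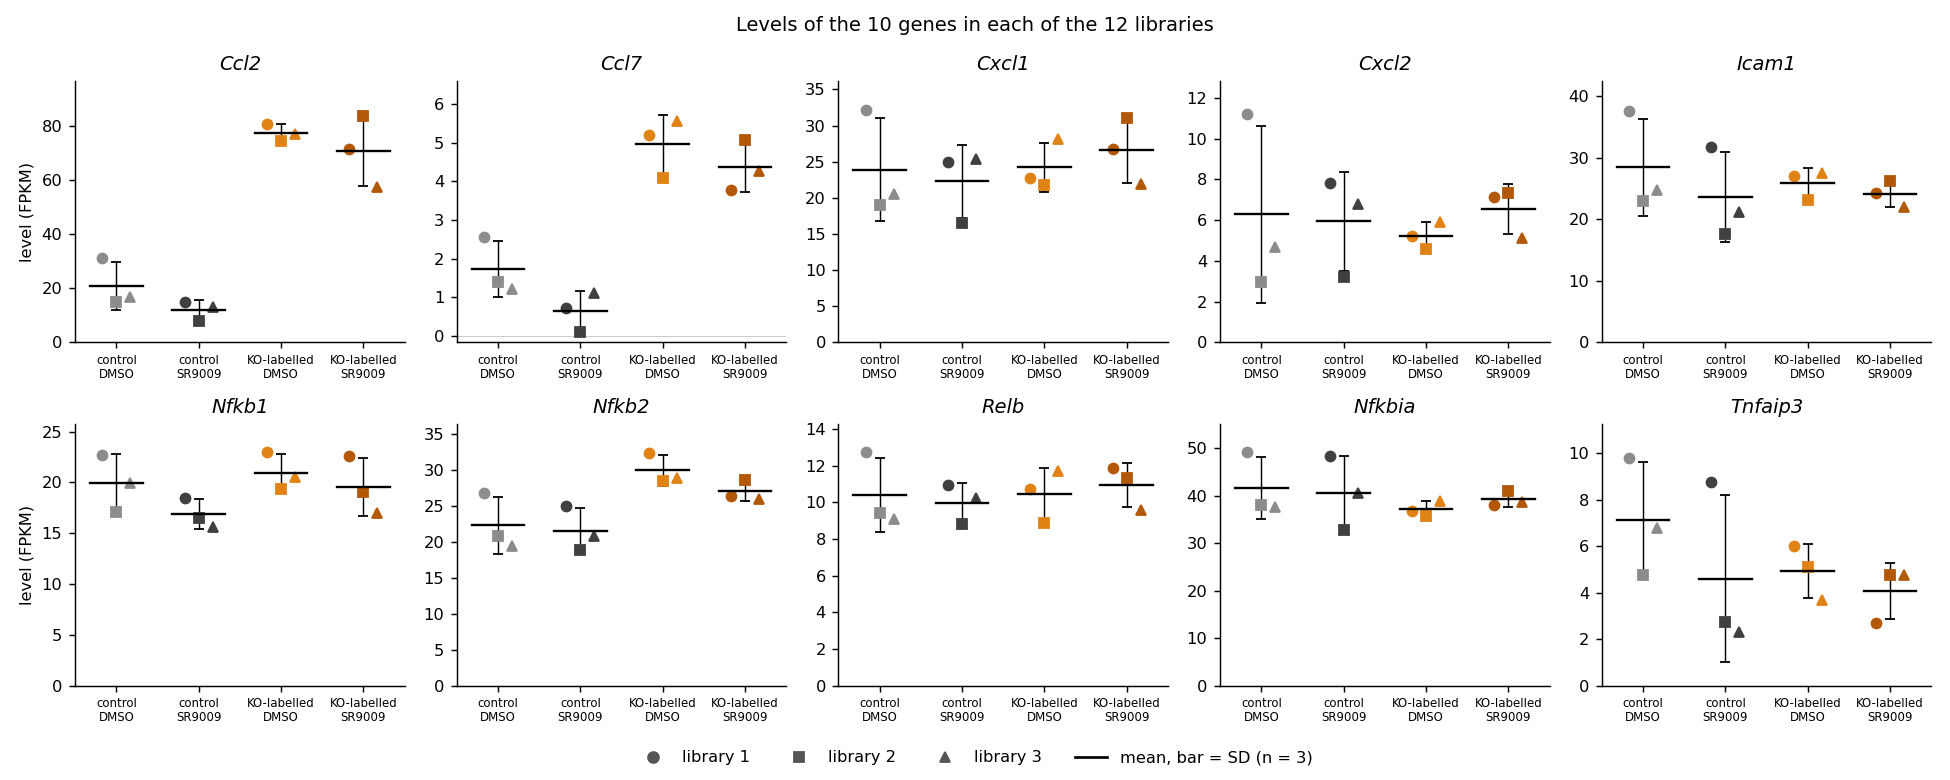
Level of each of the 10 genes in FPKM (vertical axes, linear and starting at or just below 0) by genotype and treatment. Symbols are single libraries by their number, horizontal lines are means and bars are SDs (n = 3). For Ccl2 the 6 KO-labelled libraries lie between 57.6 and 83.7 FPKM and the 6 control libraries between 7.92 and 31.2 FPKM, whereas the groups of Cxcl1 overlap.

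Cxcl1 (ENSMUSG00000029380, chromosome 5, 91320267 to 91322141), a neutrophil attractant, stood at 32.1, 19.1 and 20.6 FPKM in control and 22.7, 21.8 and 28.1 FPKM in KO-labelled cells given DMSO, and with SR9009 at 25.0, 16.5 and 25.3 FPKM and 26.7, 31.1 and 21.9 FPKM. The groups overlapped. Its log2 difference between genotypes in DMSO was 0.05 (95% interval -0.41 to 0.51, adjusted p = 0.906). Cxcl2 (ENSMUSG00000058427, chromosome 5, 91332897 to 91334935), a close relative that acts on the same receptor, was lower per length. It stood at 11.2, 2.98 and 4.68 FPKM in control and 5.23, 4.58 and 5.90 FPKM in KO-labelled cells given DMSO, and with SR9009 at 7.84, 3.19 and 6.80 FPKM and 7.14, 7.34 and 5.14 FPKM. The groups again overlapped, and the control cells given DMSO held both the highest and the lowest of the 12 values. The genotype difference of Cxcl2 in DMSO was -0.07, with a wide interval (-0.88 to 0.75, adjusted p = 0.923). Whether Ccl2 differs from these CXC chemokines in its genotype difference was not tested.

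NF-κB genes are known for binding sites close to the transcription start, so promoter sequence is shown for 4 of them. RefSeq's table (GRCm38.p6, a later build than the mm9 of the deposited coordinates) matched 6 of the 10 genes; Ccl2, Ccl7, Nfkb1 and Relb were not matched. The 250 bases before each start were searched on both strands for the NF-κB decamer consensus, and 7 of the 9 windows of these 6 genes held a match, against 3.90% of all 32851 windows. The genes were picked as known NF-κB targets, and a match is a description of the sequence. In the sequences below, written 5′ to 3′ on the gene's strand, capitals mark the matches.
Cxcl1, chr5:90890995-90891244, plus strand: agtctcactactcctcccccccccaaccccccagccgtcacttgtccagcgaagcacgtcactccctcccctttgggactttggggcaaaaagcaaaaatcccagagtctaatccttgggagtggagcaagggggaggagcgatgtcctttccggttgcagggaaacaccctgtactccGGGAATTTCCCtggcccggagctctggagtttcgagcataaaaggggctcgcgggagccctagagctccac
Cxcl2, chr5:90903649-90903898, plus strand: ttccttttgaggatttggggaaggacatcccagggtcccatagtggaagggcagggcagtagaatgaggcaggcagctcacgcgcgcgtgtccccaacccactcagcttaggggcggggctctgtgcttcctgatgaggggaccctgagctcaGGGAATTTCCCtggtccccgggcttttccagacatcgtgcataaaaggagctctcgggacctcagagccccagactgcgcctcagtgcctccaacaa
Nfkbia, chr12:55492648-55492897, minus strand: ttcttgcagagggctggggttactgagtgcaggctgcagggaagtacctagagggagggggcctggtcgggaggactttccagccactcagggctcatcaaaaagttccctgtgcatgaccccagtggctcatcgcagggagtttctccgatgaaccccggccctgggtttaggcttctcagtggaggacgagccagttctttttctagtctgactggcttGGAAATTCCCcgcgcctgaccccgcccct
Nfkb2, chr19:46304487-46304736, plus strand: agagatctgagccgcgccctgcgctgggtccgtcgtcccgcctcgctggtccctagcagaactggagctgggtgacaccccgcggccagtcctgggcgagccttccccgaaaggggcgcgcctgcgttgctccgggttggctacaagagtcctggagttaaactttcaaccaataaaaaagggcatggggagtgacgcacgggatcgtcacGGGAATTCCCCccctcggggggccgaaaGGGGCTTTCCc
In Cxcl1 and Cxcl2, whose levels overlapped between all groups, matches on both strands overlap and give 1 run, GGGAATTTCCC, beginning 71 and 97 bases before the start. In Nfkbia the match, on the opposite strand, begins 29 bases before the start, and in the Nfkb2 window 3 of the 4 matches overlap from 39 bases before it. For Tnfaip3 1 of its windows held 2 matches, and the Icam1 window held no exact match. The pattern searched must begin with GGG. The Icam1 window contains tggaaattcc, which departs from the pattern only in its first base. The search therefore does not show that Icam1 lacks an NF-κB site. The half-site AGGTCA, the core of the element that REV-ERB binds, was found on either strand in 0 of the 9 windows and in 14.02% of all windows. With so few windows, each of 250 bases and none from Ccl2 or Ccl7, this does not show that the genes lack such elements.

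Icam1 (ENSMUSG00000037405, chromosome 9, 20820404 to 20833241), which binds leukocyte integrins, stood at 37.5, 23.0 and 24.7 FPKM in control and 27.1, 23.1 and 27.5 FPKM in KO-labelled cells given DMSO, and with SR9009 at 31.8, 17.7 and 21.2 FPKM and 24.2, 26.2 and 21.9 FPKM. The groups overlapped, with the highest value in control DMSO library 1. The genotype difference in DMSO was -0.10 on the log2 scale (95% interval -0.55 to 0.35, adjusted p = 0.779). Over 491 bases Icam1 overlaps Gm20603 on the opposite strand, which averaged 0.642 FPKM against 25.5 for Icam1.

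Of the 3 subunits, Nfkb2 was higher in KO-labelled cells. Nfkb2 (ENSMUSG00000025225, chromosome 19, 46379227 to 46386580), whose precursor is processed in the slower, non-canonical branch of the pathway, stood at 26.8, 20.7 and 19.4 FPKM in control and 32.3, 28.5 and 28.9 FPKM in KO-labelled cells given DMSO. With SR9009 it stood at 25.0, 18.8 and 20.9 FPKM in control and 26.4, 28.6 and 26.0 FPKM in KO-labelled cells. Within each treatment the KO-labelled libraries were above the control ones. The mean rose 1.34-fold in DMSO, from 22.3 ± 3.95 to 29.9 ± 2.12 FPKM (log2 difference 0.42, SE 0.12, adjusted p = 0.0280). Under SR9009 the means were 21.5 ± 3.12 and 27.0 ± 1.41 FPKM (log2 difference 0.32, adjusted p = 0.0808). The DMSO call was lost without control DMSO library 2 or 3 (adjusted p = 0.0991 and 0.111), without KO-labelled DMSO library 1 or 3 (0.103 and 0.0570), with no filter on low values (0.0704) and without the 2 shallowest libraries (0.0642). The comparison under SR9009 passed without library 1 of control DMSO (adjusted p = 0.0387) or of control SR9009 (0.0279).

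Nfkb1 (ENSMUSG00000028163, chromosome 3, 135247619 to 135354511), a subunit of the canonical pair, had means of 19.9 ± 2.84 FPKM in control and 21.0 ± 1.86 FPKM in KO-labelled cells given DMSO, and of 16.9 ± 1.48 and 19.6 ± 2.83 FPKM with SR9009. Relb (ENSMUSG00000002983, chromosome 7, 20191566 to 20214787), the partner of processed NFKB2, had means of 10.4 ± 2.03 and 10.5 ± 1.46 FPKM in DMSO, and of 9.99 ± 1.09 and 10.9 ± 1.20 FPKM with SR9009. Neither gene was separated between genotypes under either treatment. The 95% intervals of the genotype difference in DMSO were -0.18 to 0.34 for Nfkb1 (adjusted p = 0.703) and -0.29 to 0.31 for Relb (adjusted p = 0.973).

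The feedback inhibitors did not pass the test in any comparison. Nfkbia (ENSMUSG00000021025, chromosome 12, 56590398 to 56593634) averaged 39.7 FPKM over the 12 libraries, next to 45.3 for Ccl2 the highest level per length of the 10 genes. It stood at 49.3, 38.0 and 37.6 FPKM in control and 36.9, 35.8 and 39.0 FPKM in KO-labelled cells given DMSO, and with SR9009 at 48.4, 32.8 and 40.7 FPKM and 38.1, 41.1 and 38.6 FPKM. The groups overlapped (genotype log2 difference in DMSO -0.15, 95% interval -0.43 to 0.13, adjusted p = 0.463). Tnfaip3 (ENSMUSG00000019850, chromosome 10, 18720716 to 18735463) stood at 9.79, 4.77 and 6.78 FPKM in control and 6.02, 5.10 and 3.69 FPKM in KO-labelled cells given DMSO, and with SR9009 at 8.75, 2.75 and 2.31 FPKM and 2.68, 4.76 and 4.76 FPKM. Control SR9009 library 1 stood far above its group, and the interval of the genotype difference in DMSO was -1.26 to 0.41 (log2 difference -0.42, adjusted p = 0.487).

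Counted over the set, 3 of the 10 genes rose and 0 fell between genotypes in DMSO, where 20.0% of all genes tested were called, 11.7% higher and 8.32% lower. Over all genes that was 1307 higher and 933 lower, and with all libraries scaled to equal medians 1053 higher and 1108 lower, so the larger share turned, while these 3 genes were still called higher. An unadjusted p under 0.05 was reached by 3 of 10, against 32.5% of all genes. The libraries were separated for the same 3, all upward, where 41.2% of all genes were separated, 23.7% upward and 17.5% downward. The median log2 difference of the 10 was 0.03 and that of all genes tested 0.04. Under SR9009 2 of the 10 rose and 0 fell, where 20.4% of all genes were called, 12.9% higher and 7.43% lower. That split, 1450 higher and 833 lower, became 1014 and 1098 when all libraries were scaled to equal medians, with Ccl2 and Ccl7 still called. In the fit without that scaling 3 of 10 had an unadjusted p under 0.05, against 33.3%, and 3 were separated upward, against 34.9% separated in all, 22.7% upward and 12.3% downward. The median was 0.19 against 0.06 for all genes. The plot of intervals shows these differences beside those of the compound.

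**Figure D2:**
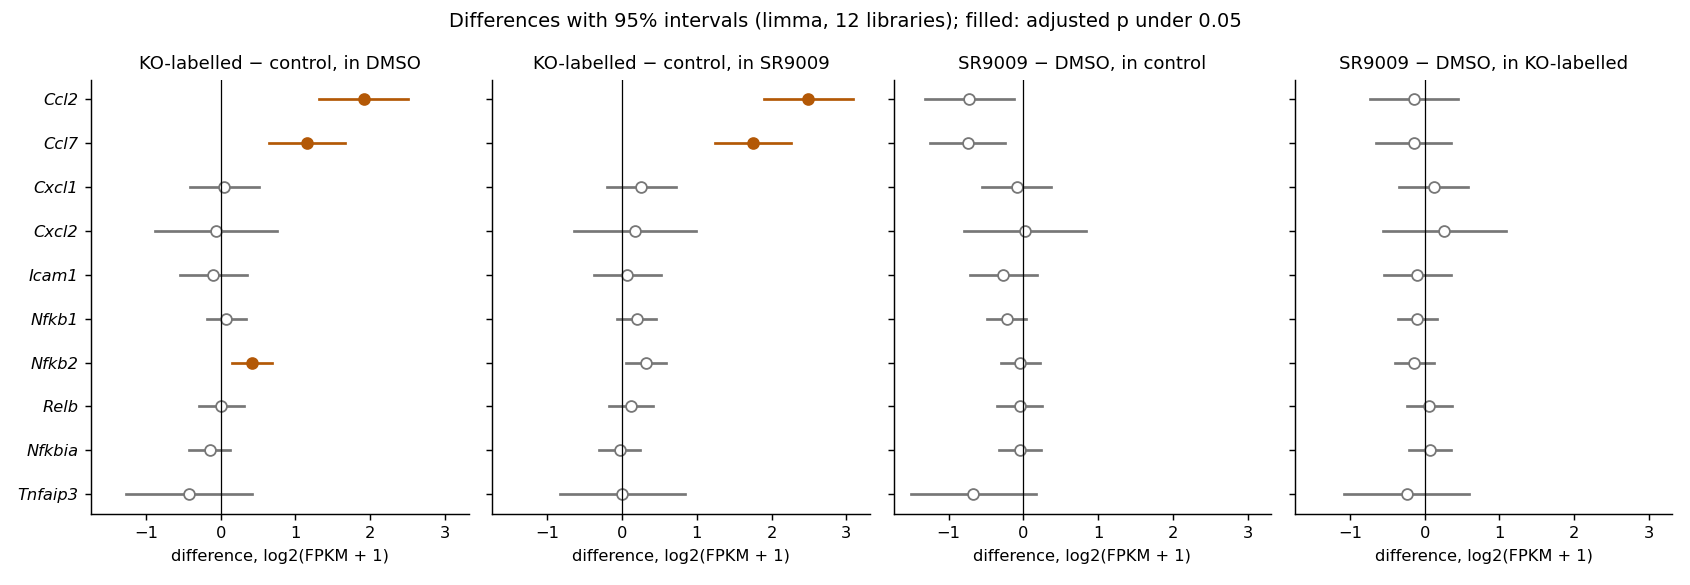
Difference of each gene in log2(FPKM + 1) (horizontal axes) with its 95% interval from limma, for KO-labelled minus control cells in DMSO and in SR9009, and for SR9009 minus DMSO in control and in KO-labelled cells. Filled symbols have an adjusted p under 0.05: Ccl2, Ccl7 and Nfkb2 for genotype in DMSO, Ccl2 and Ccl7 for genotype in SR9009, and none for SR9009.

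SR9009 took none of the 10 genes past the threshold in either genotype. In control cells limma called 0 of 10, where 8.24% of all genes were called, 3.69% higher and 4.55% lower, and 2 of 10 had an unadjusted p under 0.05, against 21.6%. The 414 higher and 510 lower genes became 482 and 436 with equal medians, and 0 of the 10 were called there too. The 2 with an unadjusted p under 0.05 in the fit without that scaling were Ccl2 and Ccl7. Ccl2 had means of 20.9 FPKM in DMSO and 12.02 FPKM with SR9009 (log2 difference -0.72, 95% interval -1.31 to -0.13, adjusted p = 0.142), and its libraries overlapped. Ccl7 had means of 1.72 and 0.645 FPKM (log2 difference -0.75, interval -1.25 to -0.24, adjusted p = 0.0729). Its SR9009 libraries were all below its DMSO libraries, a separation shown by 14.2% of all genes, with 10.8% upward and 25.0% in all. Ccl7 passed without control SR9009 library 3 (adjusted p = 0.0301). Tnfaip3 had means of 7.11 and 4.60 FPKM (adjusted p = 0.352) and passed without control SR9009 library 1, in which it was high (log2 difference -1.16, adjusted p = 0.0332). For 9 of the 10 genes the estimate was below 0, as for 53.9% of all genes.

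In KO-labelled cells limma called 0 of 10 genes for SR9009, where 9.87% of all genes were called, 5.32% higher and 4.56% lower, and 0 of 10 had an unadjusted p under 0.05, against 22.9%. None was separated, against 32.3% of all genes, 16.9% upward and 15.4% downward. Ccl2 had means of 77.5 and 70.9 FPKM (log2 difference -0.14, 95% interval -0.73 to 0.45, adjusted p = 0.817) and Ccl7 of 4.96 and 4.37 FPKM (-0.15, interval -0.65 to 0.36, adjusted p = 0.765). The difference between the SR9009 effects of both genotypes, an interaction, called 0 of the 10 genes, against 0.0268% of all genes, 0.0178% higher and 0.00892% lower, and 0 of 10 had an unadjusted p under 0.05, against 7.02%. For Ccl2 the interaction was 0.58 (95% interval -0.26 to 1.42, adjusted p = 0.825) and for Ccl7 0.60 (-0.12 to 1.31, adjusted p = 0.761). These intervals do not show that SR9009 acted alike in both genotypes. The comparisons of genotype and of compound share libraries, so their values stand side by side without a test between them.

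The 10 genes were high together in library 1 of the control groups, more so with DMSO than with SR9009. Control DMSO library 1 was the highest of its group for 10 of the 10 genes, where it was the highest for 37.1% of all genes tested. Control SR9009 library 1 was the highest for 8 of 10, against 39.5%. In control DMSO library 1 Cxcl2 was at 2.93 times the mean of the other 2 libraries, Ccl2 at 1.98 times, Tnfaip3 at 1.70 times and Nfkb1 at 1.23 times. In control SR9009 library 1 the ratio was 3.46 for Tnfaip3, 1.57 for Cxcl2, 1.40 for Ccl2 and 1.15 for Nfkb1. In control DMSO library 1 the chemokines and Tnfaip3 had larger ratios than Nfkb1 and the subunits Nfkb2 (1.34) and Relb (1.38). In control SR9009 library 1 this did not hold for all subunits. There Nfkb2 was at 1.26 times, above Cxcl1 at 1.19 times and Ccl7 at 1.17 times. The other groups were less uniform. In KO-labelled DMSO library 3 was highest for 6 genes and library 1 for 4, against 30.0% and 43.2% of all genes. In KO-labelled SR9009 library 2 was highest for 7, against 31.4%, and library 1 was highest for 2 and lowest for 3. In control SR9009 library 3 Ccl7 was above its group mean by 0.41 and Tnfaip3 deviated by -0.58 on the log2 scale. As a description over 12 libraries, deviations from the group mean correlated between the 10 genes with a median Pearson r of 0.78 over 45 pairs (lowest 0.20, highest 0.97). The median over pairs of all genes tested, taking 1 gene in 5, was 0.01. These points share libraries and their depth: control DMSO library 1 was the deepest of the 12 and control SR9009 library 1 the shallowest. The macrophage markers summed to 51.2 FPKM in control DMSO library 1 and to 64.3 and 50.9 FPKM in libraries 2 and 3. With both control libraries numbered 1 left out, an alternative chosen after seeing the data, Ccl2, Ccl7 and Nfkb2 were called between genotypes in DMSO and under SR9009. For these genes both libraries lay above their group means. Leaving them out lowers the control means, so larger genotype differences follow from the choice and give no support. In that alternative 1862 and 1969 of all genes were called.

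**Figure D3:**
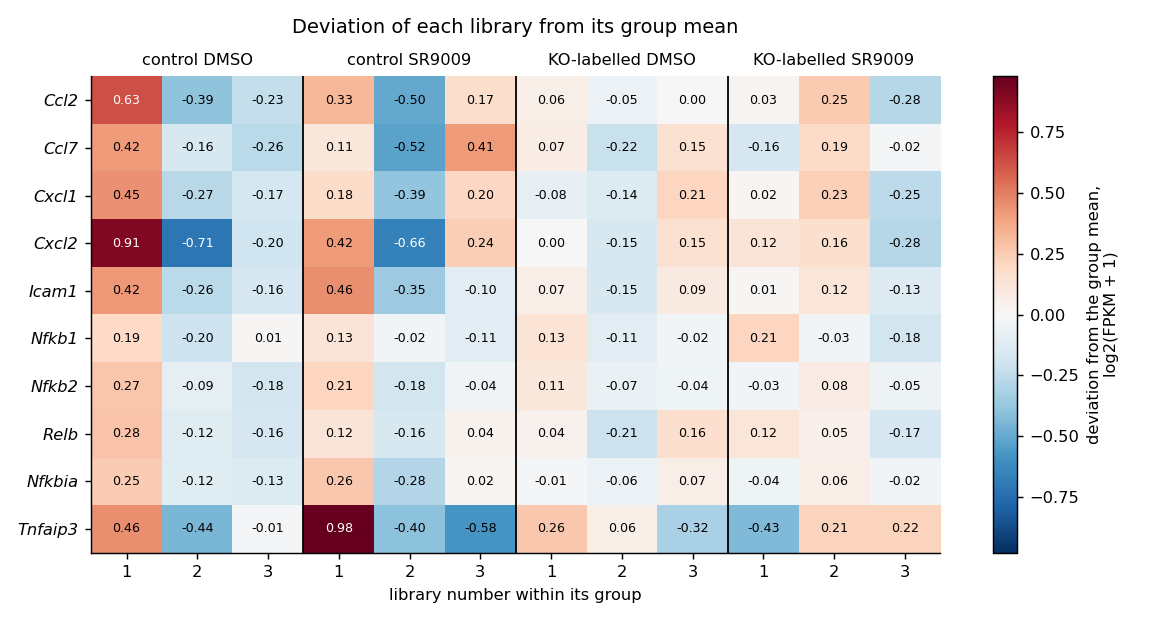
Deviation of each library from the mean of its group, in log2(FPKM + 1), for the 10 genes (down) and 12 libraries (across, numbered within their group); red is above and blue below the group mean. Library 1 of control DMSO is red for all 10 genes, with 0.91 for Cxcl2 and 0.63 for Ccl2.

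The genes most like each of 4 members over the 12 libraries were found by the Pearson r of log2(FPKM + 1), as a description. For Ccl2 these were Ubqln2, a ubiquilin of protein turnover (r = 0.98), Plscr1, a phospholipid scramblase (r = 0.97), and Trf, the iron carrier transferrin (r = 0.97). For Nfkb2 they were Plscr1 (r = 0.95), Ubqln2 (r = 0.93) and Impa2, an inositol monophosphatase (r = 0.93). Plscr1 was between 226 and 315 FPKM in the 6 control libraries and between 316 and 379 FPKM in the 6 KO-labelled ones. It was picked for its likeness to Ccl2 and Nfkb2, so a shared genotype pattern follows from the choice. For Cxcl1 they were Thap7 (r = 0.85), Asf1a (r = 0.75) and Suz12 (r = 0.73). For Nfkbia they were Slfn2 (r = 0.86), the pattern receptor Tlr2 (r = 0.84) and Degs1, a ceramide desaturase (r = 0.82). Degs1 stood at 48.6, 25.9 and 24.7 FPKM in the control libraries given DMSO, and at 21.1, 42.2 and 20.0 FPKM in the KO-labelled ones given SR9009. Its likeness to Nfkbia is again how it was picked.

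Of 31 other chemokine genes, 10 passed the filter. In DMSO 1 rose, 1 fell and 8 did not pass between genotypes, with a median log2 difference of -0.33 against 0.04 for all genes. Between genotypes 20.0% of all genes were called in DMSO (11.7% higher, 8.32% lower) and 20.4% under SR9009 (12.9% higher, 7.43% lower). For SR9009 itself the shares were 8.24% in control and 9.87% in KO-labelled cells. Cxcl16, a membrane-bound chemokine, rose from 2.30 ± 0.288 to 3.38 ± 0.450 FPKM (log2 difference 0.41, adjusted p = 0.0389). Cxcl13, a B cell attractant, fell from 3.37 ± 1.48 to 1.31 ± 0.273 FPKM (-0.87, adjusted p = 0.0106). Under SR9009 the genotype difference was 0.52 for Cxcl16 (adjusted p = 0.0105) and -1.09 for Cxcl13 (adjusted p = 0.00259), the 2 of the 10 called there. SR9009 itself called 0 of the 10 in either genotype by limma, with medians of -0.10 in control and -0.01 in KO-labelled cells. Ccl9 was singled out after its values were seen: it was between 16.8 and 19.5 FPKM in control libraries and between 10.9 and 11.5 FPKM in KO-labelled DMSO libraries, but stood at 11.2, 44.1 and 11.3 FPKM in KO-labelled SR9009, where library 2 sets the mean. In the Cxcl1 and Cxcl2 cluster of chromosome 5, Cxcl3 averaged 0.831 FPKM and Cxcl5 0.0668 FPKM, and Cxcl15 was listed at 0. Of 17 chemokine and integrin receptors 1 passed the filter, the integrin chain Itgb2, which was not called.

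**Figure D4:**
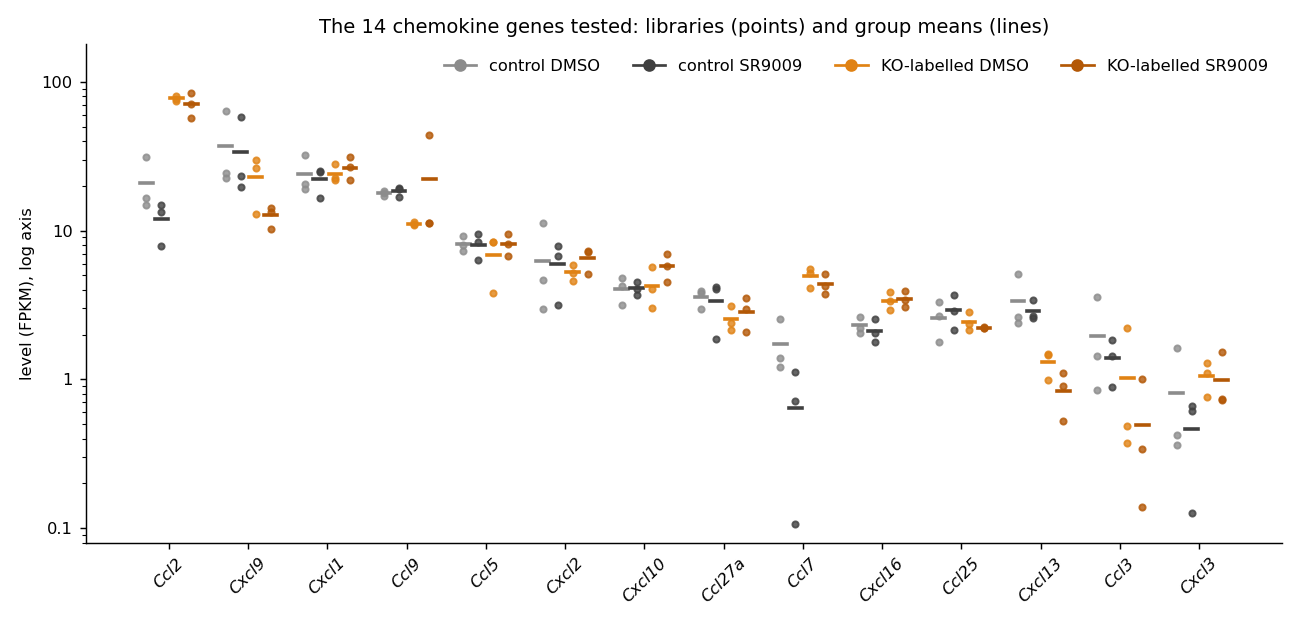
Levels of the 14 chemokine genes that passed the filter, in FPKM on a log axis, ordered by their mean. Points are libraries and short lines group means (n = 3). Ccl2 and Ccl7 stand higher in KO-labelled groups, Cxcl13 lower, and 1 KO-labelled SR9009 library of Ccl9 lies at 44.1 FPKM.

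Of 15 other subunits and inhibitors of NF-κB, 12 were tested, and between genotypes in DMSO 2 rose, 0 fell and 10 did not pass (median log2 difference 0.08). Of all genes 20.0% were called there (11.7% higher, 8.32% lower), and 20.4% between genotypes under SR9009. SR9009 itself called 8.24% of all genes in control and 9.87% in KO-labelled cells. Nfkbie, the inhibitor IκBε, rose from 2.58 ± 0.825 to 4.98 ± 1.06 FPKM (0.75, adjusted p = 0.00697). Rela, the transactivating subunit of the canonical pair, rose from 91.5 ± 4.69 to 104 ± 2.85 FPKM (0.19, adjusted p = 0.0245). Under SR9009 both were again higher in KO-labelled cells, Nfkbie by 0.61 (adjusted p = 0.0197) and Rela by 0.28 (adjusted p = 0.00226), and no other of the 12 was called. SR9009 in control cells lowered 2 and raised 0, with a median of -0.16 against -0.02 for all genes. Rela fell to 79.2 ± 2.95 FPKM (-0.21, adjusted p = 0.0323), and N4bp1, a regulator of inflammatory signalling, from 6.49 ± 0.197 to 4.92 ± 0.392 FPKM (-0.34, adjusted p = 0.0446). In KO-labelled cells SR9009 lowered 1 and raised 0: Bcl3, an IκB-like coactivator, fell from 13.7 ± 0.429 to 11.3 ± 0.780 FPKM (-0.26, adjusted p = 0.0447).

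Of 40 receptors and adaptors upstream of NF-κB, 35 were tested. Between genotypes in DMSO 3 rose and 3 fell, where 20.0% of all genes were called, 11.7% higher and 8.32% lower. Under SR9009 the share called between genotypes was 20.4%, with 12.9% higher and 7.43% lower. For SR9009 itself 8.24% of all genes were called in control and 9.87% in KO-labelled cells. Ly96, the coreceptor of TLR4, fell from a mean of 17.0 ± 0.750 FPKM to libraries at 11.8, 10.6 and 10.6 FPKM (adjusted p = 0.00774), and Il1r1, the IL-1 receptor, from 7.23 ± 0.526 to 4.96 ± 0.748 FPKM (adjusted p = 0.0100). The TNF receptor Tnfrsf1b fell from 10.04 ± 0.943 to 7.98 ± 0.714 FPKM (adjusted p = 0.0345), and Rbck1, part of the linear ubiquitin ligase, rose from 22.2 ± 0.618 to 26.9 ± 2.45 FPKM (adjusted p = 0.0254). Cd14 (adjusted p = 0.0349) and another TNF receptor, Tnfrsf1a, also rose, named after their values were seen. Tnfrsf1a went from 30.1 ± 1.34 to 35.8 ± 1.71 FPKM (adjusted p = 0.0450). It was again higher in KO-labelled cells under SR9009 (log2 difference 0.31, adjusted p = 0.0133). Under SR9009 8 rose and 2 fell between genotypes. The log2 difference there was -0.75 for Ly96 (adjusted p = 0.00150), -0.43 for Tnfrsf1b (0.00472), 0.37 for the lipopolysaccharide receptor Cd14 (0.00981) and 0.38 for the kinase adaptor Tab2 (0.0132). SR9009 itself raised 2 of the 35 and lowered 1 in control cells, and raised 2 and lowered 3 in KO-labelled cells. Il1r1 fell in both, to 4.26 ± 0.270 FPKM in control (log2 difference -0.65, adjusted p = 0.00382) and to 3.37 ± 0.443 FPKM in KO-labelled cells (-0.44, adjusted p = 0.0249). Map3k14, the kinase that starts processing of NFKB2, rose from 7.18 ± 0.810 to 10.6 ± 1.78 FPKM in control (0.50, adjusted p = 0.0254) and from 8.38 ± 0.952 to 13.4 ± 0.676 FPKM in KO-labelled cells (0.62, adjusted p = 0.00668), whereas Nfkb2 was not called for SR9009. Ly96 also rose in both, to 27.3 ± 4.46 FPKM (adjusted p = 0.0107) and 15.9 ± 2.97 FPKM (adjusted p = 0.0381), and Birc2, a ubiquitin ligase that restrains Map3k14, fell in KO-labelled cells (-0.37, adjusted p = 0.0287).

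Of 32 cytokines and other NF-κB targets, 17 were tested, and between genotypes in DMSO 3 rose, 4 fell and 10 did not pass (median log2 difference 0.01). Among all genes 20.0% were called there, 11.7% higher and 8.32% lower, and 20.4% between genotypes under SR9009. The shares for SR9009 itself were 8.24% in control and 9.87% in KO-labelled cells. Il33, a cytokine released from damaged cells, fell from 7.04 ± 0.845 to 1.73 ± 0.444 FPKM (-1.57, adjusted p = 2.87e-06). The stress gene Gadd45b fell from 34.1 ± 0.414 to 20.8 ± 2.40 FPKM (adjusted p = 0.000150), and the iron-withholding lipocalin Lcn2 from 1729 ± 268 to 1125 ± 93.0 FPKM (adjusted p = 0.00588). Il1a fell from 1.69 ± 0.470 to 0.336 ± 0.245 FPKM (adjusted p = 0.0178). Il1a reached 1 FPKM in 3 or more libraries only because of its control libraries given DMSO, and a gene that enters the test through its high group gives no support. The 3 that rose were Ripk2 (0.36, adjusted p = 0.0296), Lif (0.43, 0.0398) and Cflar (0.27, 0.0444), named after their values were seen. Lif is below 1 FPKM in all 6 DMSO libraries and reached 1 FPKM only in the KO-labelled libraries given SR9009. Its calls between genotypes give no support under either treatment, for the same reason. Under SR9009 2 rose, 1 of them Lif, and 3 fell. The log2 differences were -1.40 for Il33 (adjusted p = 8.00e-06), -0.82 for Gadd45b (3.40e-05), -1.20 for Lcn2 (4.01e-05) and 0.39 for the kinase Ripk2 (0.0172). SR9009 itself raised 1 and lowered 1 in each genotype. Gadd45b rose in both, to 47.7 ± 4.38 FPKM in control (adjusted p = 0.00663) and 26.6 ± 1.62 FPKM in KO-labelled cells (adjusted p = 0.0284). Irf1, an interferon-pathway transcription factor, fell in control cells from 6.41 ± 1.40 to 4.25 ± 0.191 FPKM (adjusted p = 0.0445), and Lcn2 fell in KO-labelled cells to 626 ± 49.9 FPKM (adjusted p = 0.00175). The interaction called none of the genes of these lists by limma.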

How the data were processed

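RNA was sequenced from 12 hepatocyte libraries after poly(A) enrichment and ribosomal RNA removal (NEBNext Ultra II), per the labels' protocols. HISAT2, StringTie and mm9 are named in the submitters' processing notes. Their versions, the annotation and the strand setting were not given, so genes that overlap on opposite strands cannot be separated. The values the authors deposited, 1 per gene and library, were taken as FPKM computed by StringTie, because libraries sum to different totals (538521 to 604449); the header names no unit. Here log2(FPKM + 1) was fitted with limma 3.58.1 in R 4.3.3, with a mean per group and trend and robust variance, over genes reaching 1 FPKM in 3 or more libraries. The fit was tested on simulated data. Alternatives varied the pseudocount, filter, scaling, variance model, groups fitted, replicate block and libraries. Members and lists were chosen with earlier results of these data known. The rule named all 10 genes, up to 4 called genes with the smallest p per pathway list and comparison, and the 3 genes most like Ccl2, Cxcl1, Nfkbia and Nfkb2. Older symbols (5 of them) were matched through the reference annotation.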

Additional observations from a re-analysis of the deposited data

How the results depend on the processing

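The calls of Ccl2 between genotypes held in 22 of 22 alternatives in DMSO (log2 difference 1.72 to 2.23) and in 22 of 22 under SR9009 (2.24 to 2.66). Ccl7 held in 21 of 22 and 22 of 22, and Nfkb2 in DMSO in 16 of 22 (0.33 to 0.55). The 22 include fits without a library of the other treatment, which leave the estimate itself unchanged. Among the fits without a library of the DMSO groups, Nfkb2 lost its call without control library 2 or 3 and without KO-labelled library 1 or 3. In all, 1075 of 1090 alternative values for single genes kept their side of the threshold, 7 lost it and 8 gained it; 55 changed sign with neither value called. Of the 10 genes, 2 to 3 were called between genotypes in DMSO or under SR9009 when single libraries were left out, and 0 to 1 for SR9009 in control, 1 without the 2 shallowest libraries. Without single libraries 1607 to 2718 of all genes were called between genotypes in DMSO and 1651 to 2253 under SR9009. Deviations of same-numbered libraries had r between -0.11 and 0.12 over 18 pairs. The labels do not say whether equal numbers share an origin, and these correlations cannot decide it. With the replicate block 3 of the 10 genes were called between genotypes in DMSO and 3 under SR9009, where Nfkb2 was added (adjusted p = 0.0434). With that block 2084 and 2131 of all genes were called. Over all genes, SR9009 in control called 924, and 530 to 919 without single libraries, 335 without both control libraries numbered 1, 609 without the 2 shallowest and 376 with only the groups compared. SR9009 in KO-labelled cells called 1107, and 603 to 1438 without single libraries. KO-labelled against control under SR9009 called 2283, and 1518 with only the groups compared. The interaction called 3 genes, 0 with the replicate block, 0 to 5 without single libraries, 6 without both control libraries numbered 1, and 1 with no filter, quantile normalization, equal medians, no trend and robust variance, or without the 2 shallowest libraries; the cause was not tested. The 2 alternatives that leave out both control libraries numbered 1 or the 2 shallowest libraries were chosen after seeing the data. Levels near 0.1 FPKM, such as Ccl7 in control SR9009 library 2, rest on few fragments.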
